A study of Mus musculus with 4 samples.

Results

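The glucocorticoid receptor gene Nr3c1 and 4 genes known to respond to glucocorticoids, Tsc22d3, Fkbp5, Sgk1 and Txnip, were followed in regulatory T cells (Tregs) of the mouse liver. These 5 genes were chosen by symbol, all 5 were found (in capitals, as NR3C1, TSC22D3, FKBP5, SGK1 and TXNIP) among the 24452 genes of the deposited table, and all 5 passed the filter on low values that left 10486 genes for testing. Tregs are CD4 T cells that restrain immune responses. The libraries came from liver Tregs of young mice, 2 of genotype Altre-WT and 2 of genotype Altre-KO, in which the Treg long non-coding RNA Altre is knocked out. No treatment, exact age, strain, sorting gate or knockout design is given in the labels, and Altre itself was not analysed here, which leaves the genotypes as labelled. Whether libraries of the same genotype came from separate mice is not stated, so every p-value below measures only the spread between these libraries, which may be technical. The comparison asks whether loss of Altre changes the receptor or its response genes in Tregs of the young liver. Hormone levels were not measured.

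Glucocorticoids are steroid hormones of the adrenal cortex that enter cells and bind the receptor encoded by Nr3c1. The unbound receptor waits in the cytosol on Hsp90 with co-chaperones. The bound receptor moves to the nucleus, binds DNA elements made of a pair of inverted arms around a short spacer, and also restrains the inflammatory factors NF-kB and AP-1. In T cells this programme raises genes that dampen activation, and Tregs are among the cells through which glucocorticoids limit inflammation. Tsc22d3 encodes GILZ, a leucine zipper protein that carries part of the anti-inflammatory action. Fkbp5 encodes an Hsp90 co-chaperone that lowers the receptor's affinity for hormone and so closes a feedback loop. Sgk1 encodes a kinase of the AKT-like group that acts on FOXO factors and ion transport. Txnip encodes an alpha-arrestin that binds thioredoxin and removes glucose transporters from the membrane, and it also answers to glucose through carbohydrate response elements.

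Upstream sequences are shown because such stretches can hold elements through which the receptor and other factors reach genes. Sequence further from the starts was not searched. RefSeq promoter windows (build GRCm38.p6) matched 4 of the genes by symbol, with 11 windows in all, 6 for Sgk1, 3 for Tsc22d3 and 1 each for Fkbp5 and Txnip. The 250 bases before each start were searched on both strands for the full element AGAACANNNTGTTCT, for its relaxed form GNACANNNTGTNC, for a single arm AGAACA, for a paired E-box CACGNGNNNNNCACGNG of the carbohydrate response type, for the single E-box CACGTG, for the FOXO motif GTAAACA, for the promoter element CCAAT and for the core promoter motif TATAAA. The full element contains the relaxed form and both of its arms. Each gene is shown with the window that held the most matches, written 5′ to 3′ on the strand of the gene with matches in capitals, and the Tsc22d3 window was shortened to the bases outside the gene's annotated exons.

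Sgk1, chr10:21993640-21993889, plus strand: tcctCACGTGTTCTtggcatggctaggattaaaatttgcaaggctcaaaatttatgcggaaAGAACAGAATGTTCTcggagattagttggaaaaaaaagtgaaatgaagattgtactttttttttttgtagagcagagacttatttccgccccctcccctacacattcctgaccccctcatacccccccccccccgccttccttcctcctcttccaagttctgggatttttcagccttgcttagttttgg
Txnip, chr3:96557707-96557956, plus strand: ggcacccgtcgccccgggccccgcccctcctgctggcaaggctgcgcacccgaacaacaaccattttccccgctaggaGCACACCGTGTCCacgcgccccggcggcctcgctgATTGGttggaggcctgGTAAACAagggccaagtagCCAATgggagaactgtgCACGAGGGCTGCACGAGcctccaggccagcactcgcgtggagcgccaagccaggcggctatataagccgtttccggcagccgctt
Fkbp5, chr17:28486150-28486399, minus strand: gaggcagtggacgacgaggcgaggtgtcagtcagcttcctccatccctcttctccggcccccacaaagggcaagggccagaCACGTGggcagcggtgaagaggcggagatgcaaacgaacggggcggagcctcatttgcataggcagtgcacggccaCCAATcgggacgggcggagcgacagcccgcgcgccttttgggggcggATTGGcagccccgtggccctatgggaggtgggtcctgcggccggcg
Tsc22d3, chrX:140600660-140600772, minus strand: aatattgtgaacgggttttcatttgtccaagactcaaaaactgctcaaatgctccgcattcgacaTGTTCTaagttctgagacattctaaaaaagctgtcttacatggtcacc

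The Sgk1 window held the full element as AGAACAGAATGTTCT, at positions -189 to -175 from its start (chromosome 10, 21993701 to 21993715), in intronic sequence of the longer Sgk1 transcripts and 951 bases before the most downstream start. Of all 32851 promoter windows of the same length, 3 held that element (0.00913%). The Txnip window held the relaxed element as GCACACCGTGTCC at -172 to -160, a form present in 0.387% of windows. It also held the paired E-box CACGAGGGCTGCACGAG at -85 to -69, present in 0.0457% of windows, and a FOXO motif at -121 to -115, present in 3.17%. The Fkbp5 window held CACGTG at -169 to -164 (6.02% of windows) and CCAAT on both strands (33.8%), and the Tsc22d3 window held a single arm at -185 to -180 (16.1%). That arm lay 52131 and 58034 bases before the other Tsc22d3 starts, whose windows held no match. Shares count single windows, while the Sgk1 and Tsc22d3 windows shown were picked from 6 and 3. These matches describe letters in a window and were not tested for binding.

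In GRCm38 with the GENCODE M21 annotation, all 5 are protein-coding genes. Nr3c1 lies on chromosome 18 (39410545 to 39519421, minus strand), Tsc22d3 on chromosome X (140539528 to 140600659, minus strand), Fkbp5 on chromosome 17 (28399094 to 28517527, minus strand), Sgk1 on chromosome 10 (21882184 to 21999903, plus strand) and Txnip on chromosome 3 (96557957 to 96561883, plus strand). Fkbp5 overlaps 4 other annotated genes, on both strands, and the Fkbp5 window shown above lies inside the annotated gene but outside exons. Txnip overlaps the antisense gene Gm15441 on the opposite strand, and the Txnip window shown above lies wholly within a Gm15441 exon. The labels do not state whether counting used strand, so how reads from the stretch shared by Txnip and Gm15441 were assigned is not known. Estimated reads of Txnip were fractional in all 4 libraries, while those of the other 4 genes came out whole within 0.02 of a read.

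Depth set the counting error of each value. Levels are in CPM, reads on listed genes scaled to a common total, and libraries held an estimated 1828773 to 3266132 such reads, so that 1 read was worth 0.306 to 0.547 CPM. Knockout replicate 1 stood apart, since listed genes took 32.8% of its reads and 18.8% to 21.5% of those of the others. Summed Treg markers (Foxp3, Il2ra, Ctla4, Ikzf2 and Tnfrsf18) lay at 2188 and 2220 CPM in Altre-WT and 2151 and 2211 CPM in Altre-KO, although Foxp3 itself was at 79.5 CPM in knockout replicate 1 against 140.5 to 162 CPM elsewhere. The 5 hepatocyte markers summed to 1.09 and 1.26 CPM in Altre-WT and 0 and 1.69 CPM in Altre-KO, with Alb and Ttr at 0 throughout. The 6 macrophage and monocyte markers summed to 169 and 265 CPM in Altre-WT and 262 and 144 CPM in Altre-KO. Among them Lyz2 was at 66.1 to 165 CPM, Csf1r at 29.0 to 60.1 CPM and C1qa at 16.9 to 28.2 CPM. Adgre1 was at 7.11 to 21.4 CPM, Cd68 at 2.96 to 5.51 CPM and the Kupffer cell marker Clec4f at 0.55 CPM or less. The 4 endothelial markers summed to 180 and 223 CPM in Altre-WT and 175 and 212 CPM in Altre-KO. Nearly all of that was Pecam1, at 172 to 215 CPM. Stab2 was at 0.92 to 6.02 CPM, Cdh5 at 0.31 to 2.94 CPM and Kdr at 1.09 CPM or less. In such bulk libraries, fewer cells of a type and less RNA per cell cannot be told apart.

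The receptor and its response genes were present in every library, and none differed between genotypes beyond the limma threshold. The limma test on log2(CPM + 1), adjusted over all 10486 genes, called 0 of the 5 genes at an adjusted p of 0.05, where it called 0.0381% of all tested genes (4, all lower in knockout). At an unadjusted p under 0.05 it was 1 of 5, Tsc22d3, against 3.66% of all tested genes in either direction and 2.22% with knockout lower, and limma-voom on estimated reads also called 0 of 5. Log2 fold changes, knockout minus wild type, were positive for 3 genes (47.9% of all tested) and negative for 2 (52.1%), and ran from -0.32 to 0.13.

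**Figure D1:**
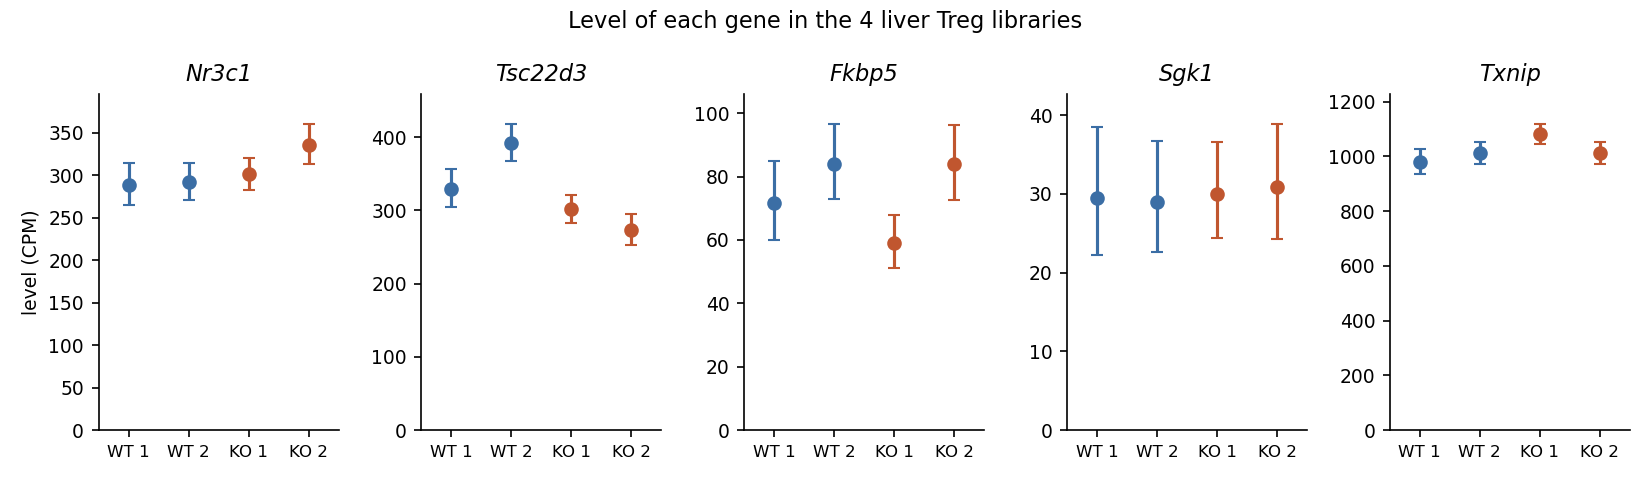
Level in CPM of Nr3c1, Tsc22d3, Fkbp5, Sgk1 and Txnip (panels, y axes from 0) in wild-type (blue) and knockout (orange) libraries; bars are exact Poisson 95% intervals from estimated reads and cover counting error only. Tsc22d3 was below both wild-type libraries in both knockout libraries, and Fkbp5 was lowest in knockout replicate 1 at 59.1 CPM.

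The receptor gene Nr3c1 was at 289 and 292 CPM in Altre-WT and at 301 and 336 CPM in Altre-KO. Both knockout libraries thus lay above both wild-type libraries, by little in replicate 1 and more in replicate 2. The log2 fold change was 0.13 (SE 0.15, 95% interval -0.18 to 0.44, limma adjusted p = 0.999), which bounds the change between 0.882-fold and 1.36-fold. Counting error of a single library was between 3.19% and 4.35% of its value, so the distance between the lower knockout library and the wild type was not detectable at this depth. Of the other steroid receptors, the mineralocorticoid receptor gene Nr3c2, whose product binds the same hormones, was at 8.20 and 19.3 CPM in Altre-WT and 12.6 and 15.7 CPM in Altre-KO. The genotypes overlapped. The oestrogen receptor gene Esr1 had a log2 fold change of -0.24, and the progesterone receptor gene Pgr and Esr2 were below the filter.

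Tsc22d3, the GILZ gene, was at 329.7 and 392 CPM in Altre-WT and at 302 and 273.5 CPM in Altre-KO. Both knockout libraries lay below both wild-type libraries, but the 2 wild-type libraries were further apart from each other than the nearest libraries of the 2 genotypes. The log2 fold change was -0.32 (SE 0.15, 95% interval -0.64 to -0.0053, unadjusted p = 0.0466, limma adjusted p = 0.999), or 1.25-fold lower, and it did not pass the threshold. It was -0.20 without wild-type replicate 2. The authors' deposited table gave Tsc22d3 a log2 fold change of -0.33, a p of 0.0951 and an adjusted p of 1. The other genes of the TSC22 domain family, which share the leucine zipper, lay close to 0. Tsc22d4 was at 125 and 122 CPM in Altre-WT and 114 and 133 CPM in Altre-KO, Tsc22d2 had a log2 fold change of -0.05 and Tsc22d1 of 0.02.

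Fkbp5, the feedback co-chaperone gene, was at 71.6 and 84.1 CPM in Altre-WT and at 59.1 and 83.8 CPM in Altre-KO. The genotypes overlapped, and knockout replicate 2 was level with the higher wild-type library. The log2 fold change was -0.14 (SE 0.22, 95% interval -0.58 to 0.31, limma adjusted p = 0.999). That sign rested on knockout replicate 1, the library with the larger share of reads on listed genes, and the value was 0.11 without it. The part of that library's make-up in the value was not tested. Fkbp4, which encodes the co-chaperone that helps the receptor bind hormone and reach the nucleus, was at 153 and 125 CPM in Altre-WT and 162 and 121 CPM in Altre-KO, with a log2 fold change of 0.01. Of the 15 FKBP immunophilin genes, 6 were tested, 5 of them lower and 1 higher, and their median log2 fold change was -0.04. The remaining tested ones were Fkbp8 (-0.12), Fkbp1a (-0.06), Fkbp3 and Fkbp15 (-0.02 and -0.01).

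Sgk1, the serum and glucocorticoid regulated kinase gene, was the lowest of the 5, at 29.5 and 29.0 CPM in Altre-WT and at 30.0 and 30.9 CPM in Altre-KO. The 4 libraries were within 1.07-fold of each other. Knockout was nominally above wild type, with a log2 fold change of 0.06 (SE 0.28, 95% interval -0.52 to 0.63, limma adjusted p = 0.999). The values rested on 54 and 69 estimated reads in wild type and 98 and 73 in knockout. Counting error of such reads averages 11.9% of a library's value, while the SD over the 4 libraries was 2.72% of the mean, so differences of this size were not detectable at this depth. Its relative Sgk3 was at 25.7 and 26.9 CPM in Altre-WT and 29.1 and 32.6 CPM in Altre-KO (log2 fold change 0.22), and Sgk2 was below the filter.

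Txnip, the thioredoxin-binding alpha-arrestin gene, was the highest, at 981 and 1012 CPM in Altre-WT and at 1082 and 1012 CPM in Altre-KO. Wild-type replicate 2 and knockout replicate 2 were nearly level, and the gap between these nearest libraries was far below counting error. The genotype means were further apart, at 996 CPM in Altre-WT and 1047 CPM in Altre-KO, where counting error averages 2.03%. The log2 fold change was 0.07 (SE 0.14, 95% interval -0.22 to 0.36, limma adjusted p = 0.999), which bounds the change between 0.858-fold and 1.29-fold. The antisense gene Gm15441, named for its overlap, did not reach the filter, being at 1.36 and 1.02 CPM in Altre-WT and at 3.79 and 3.54 CPM in Altre-KO, on an estimated 2.5 and 2.4 reads against 12.4 and 8.4 reads. These were fractional too. Gm15441 was higher in both knockout libraries, on few reads and with no test.

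In 4 of the 5 genes the 2 genotypes did not overlap, 3 with knockout higher and Tsc22d3 with knockout lower, against 30.8% of all tested genes (14.7% higher and 16.1% lower). With 2 libraries against 2, an exact permutation test (2-sided) cannot go below a p of 0.333, which those 4 genes reached, and Fkbp5 had 0.667. For Nr3c1, Sgk1 and Txnip the gap between the nearest libraries of the genotypes was smaller than the counting error of those libraries.

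**Figure D2:**
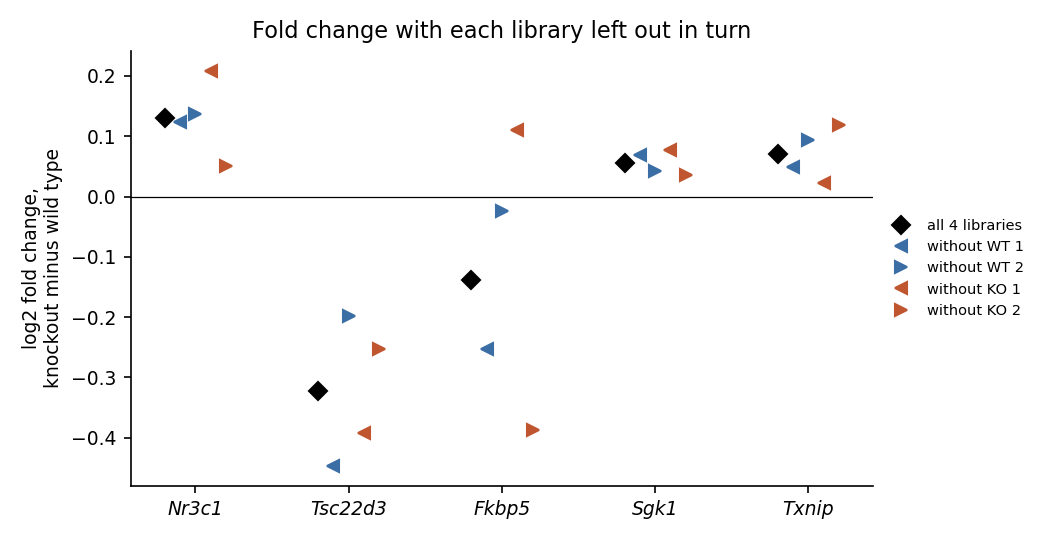
Log2 fold change (y axis, knockout minus wild type) of each gene with all 4 libraries (diamonds) and with 1 library left out (triangles). Tsc22d3 stayed below 0 in these fits, between -0.45 and -0.20, and Fkbp5 crossed 0 without knockout replicate 1.

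Leaving out each library in turn moved the small differences of the other genes as well. Nr3c1 ran from 0.051 without knockout replicate 2 to 0.21 without knockout replicate 1, and Txnip from 0.023 without knockout replicate 1 to 0.12 without knockout replicate 2. Sgk1 ran from 0.035 to 0.076. None of the 5 passed in these fits.

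Spread over the libraries differed among the 5 genes. The distance from the highest to the lowest library was 0.089 for Sgk1, 0.14 for Txnip, 0.22 for Nr3c1, 0.50 for Fkbp5 and 0.52 for Tsc22d3, on the log2(CPM + 1) scale. Across the 7288 tested genes with a mean of at least 20 CPM the median distance was 0.43, and 1.26% of them had a smaller distance than Sgk1, 4.71% than Txnip, 13.6% than Nr3c1, 61.6% than Fkbp5 and 63.6% than Tsc22d3. The GILZ and co-chaperone genes varied somewhat more than the median gene of that set, which was not matched for level. The SD over the 4 libraries was 15.6% of the mean for Tsc22d3 and 15.9% for Fkbp5, where counting error averages 3.62% and 7.53%. It was 7.08% for Nr3c1 and 4.19% for Txnip, where counting error averages 3.72% and 2.03%. For Sgk1 it was 2.72%, below its counting error of 11.9%, so the small range of Sgk1 does not show a steady transcript.

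**Figure D3:**
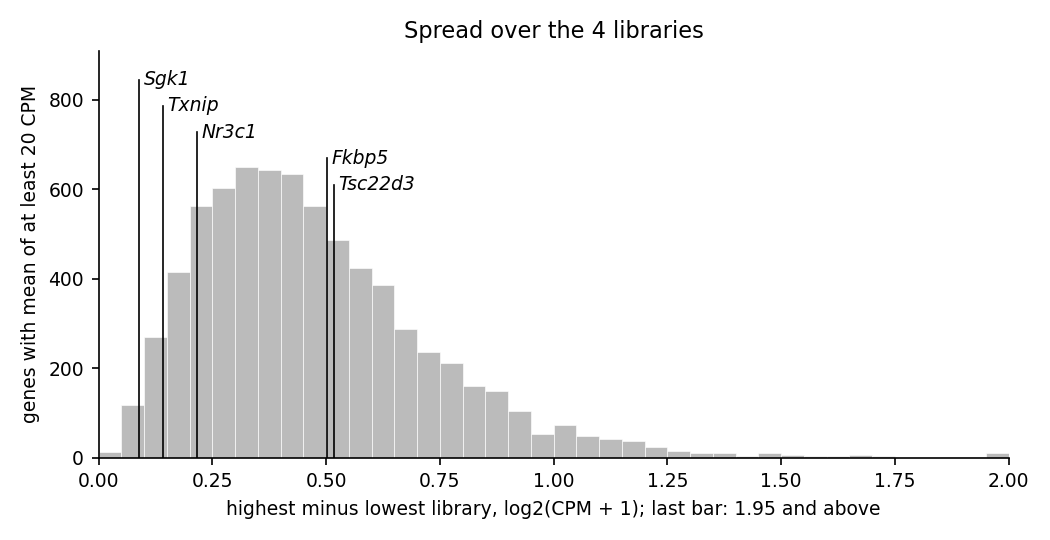
Number of genes with a mean of at least 20 CPM (y axis) by the distance between their highest and lowest library (x axis, log2(CPM + 1)), with the 5 genes marked. Sgk1, Txnip and Nr3c1 lie left of the median of 0.43, and Fkbp5 and Tsc22d3 just right of it.

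The ratio of 2 genes within a library does not depend on how libraries are scaled. The log2 ratio of Nr3c1 to Tsc22d3 in CPM was -0.19 and -0.42 in wild type and -0.0015 and 0.30 in knockout, so it was lower in both wild-type libraries than in both knockout libraries. CPM are not corrected for length, so the sign of the ratio does not order the 2 levels. Of the 10 pairs among the 5 genes, this had the widest distance between genotype means (0.45), a choice made after the values were seen and with no test. The ratio of Sgk1 to Txnip had the smallest range, from -5.17 to -5.03 in the 4 libraries, below the counting error of Sgk1.

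Set per kilobase of merged exons, the order of levels was the same in all 4 libraries: Txnip, Tsc22d3, Nr3c1, Fkbp5, Sgk1. Txnip lay at 314 and 324 CPM per kb in wild type and at 346 and 324 in knockout, a level above that of 99.4% of tested genes. Tsc22d3 lay at 83.1 ± 10.1 CPM per kb in wild type and 66.2 ± 4.57 in knockout (SD, n = 2 each), and Nr3c1 at 37.8 ± 0.27 and 41.5 ± 3.21, above 95.5% and 89.8% of tested genes. These neighbours did not overlap. Fkbp5 (8.22 ± 0.93 and 7.55 ± 1.85 CPM per kb) and Sgk1 (5.97 ± 0.076 and 6.21 ± 0.13) were close, and in knockout replicate 1 they were at 6.24 and 6.12 CPM per kb, within counting error. With the longest transcript in place of merged exons the order was kept, and Fkbp5 averaged 19.4 in place of 7.88 CPM per kb.

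The genes whose levels over the 4 libraries ran most like each of the 5 were found by the Euclidean distance of centred log2(CPM + 1) values among 7087 named genes. Closest to Tsc22d3 were Snu13, Selenop and the inhibitory receptor gene Btla, at distances of 0.046 to 0.054, and Btla was at 248 and 289 CPM in Altre-WT and 234 and 208 CPM in Altre-KO. Closest to Fkbp5 was Tnfaip3, which encodes the NF-kB inhibitor A20 and is itself on the list of glucocorticoid-induced genes, at 392 and 435 CPM in Altre-WT and 315 and 444 CPM in Altre-KO, followed by Dnajc13 and Btrc. Nr3c1 was closest to Pias4, Oxa1l and Scml4, Sgk1 to Pdxdc1, Iws1 and Fyco1, and Txnip to Usp38, Nampt and Hmox2. With 4 points such likeness is common, and between 1.25% (Nr3c1) and 3.43% (Fkbp5) of the tested genes had a Pearson's r of at least 0.95 with the gene.

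Around the receptor, the genes of its cytosolic complex and of steroid handling went both ways. Of 21 genes, Nr3c1 and Fkbp5 included, 20 were tested, 10 higher and 10 lower in knockout and none past the threshold, and their median log2 fold change was -0.0029 against -0.01 for all tested genes. The inducible Hsp90 gene Hsp90aa1 was at 205 and 243 CPM in Altre-WT and 179 and 163 CPM in Altre-KO (log2 fold change -0.38, unadjusted p = 0.0302, limma adjusted p = 0.999). Its constitutive partner Hsp90ab1 was at 680.2 and 659.5 CPM against 544 and 566 CPM. The genotypes did not overlap for either gene, with knockout lower. Of the 20 tested genes, 4 were separated with knockout lower and 6 with knockout higher, Hspa8, Hsd11b1 and Abcb1b among the latter. Over all tested genes the shares were 16.1% and 14.7%. The p23 gene Ptges3, whose product completes the mature complex, had a log2 fold change of 0.03 and Hspa8 of 0.25. Hsd11b1, which encodes the enzyme that regenerates active hormone inside cells, was at 68.3 and 62.2 CPM in Altre-WT and 89.7 and 76.2 CPM in Altre-KO (log2 fold change 0.34, limma adjusted p = 0.999). Hsd11b2, of the enzyme that inactivates the hormone, reached at most 1.27 CPM. Abcb1b, of a pump that can export glucocorticoids, was at 7.66 and 13.7 CPM against 18.7 and 17.4 CPM (log2 fold change 0.76), on few reads, while the related Abcb1a had -0.16.

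Coregulators through which the receptor acts on chromatin were mostly lower in knockout, with 12 of 16 lower, none past the threshold, and a median log2 fold change of -0.18. The corepressor gene Ncor1 was at 447 and 450.2 CPM in Altre-WT and 298 and 420.4 CPM in Altre-KO, with an unadjusted p of 0.0462 (limma adjusted p = 0.999). The acetyltransferase gene Ep300 was at 166 and 157 CPM in Altre-WT and 86.3 and 171 CPM in Altre-KO. Knockout replicate 1 was the lowest library for 11 of the 16 (68.8%) and for 25.8% of all tested genes. Without that library the list's median log2 fold change was -0.017. Without it Ep300 had a log2 fold change of 0.085 and Ncor1 of -0.094.

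Among 29 other genes known to be induced by glucocorticoids, 22 were tested, 16 lower and 6 higher in knockout, and their median log2 fold change was -0.10 and none past the threshold (0 also at an unadjusted p under 0.05). Knockout lay below wild type with no overlap in 6 of them (27.3%, against 16.1% of all tested genes). It lay above in 1 of the 22, against 14.7% of all tested genes. Dusp1, a phosphatase that ends MAP kinase signalling, was at 208 and 237.5 CPM in Altre-WT and 159 and 197 CPM in Altre-KO (log2 fold change -0.33), and Il7r, the interleukin-7 receptor gene, at 278 and 269 CPM against 202 and 241 CPM (-0.31). The sestrin gene Sesn1 went the other way, at 149 and 141 CPM against 175 and 173 CPM (0.26). The classic target genes Per1, of the circadian clock, and Klf9 had log2 fold changes of -0.02 and -0.37, and the NF-kB inhibitor gene Nfkbia 0.04. The metallothionein gene Mt2 was at 0 in all 4 libraries, Mt1 at 2.10 CPM in 1 of them, and Zbtb16 and Pdk4 were at 3.28 CPM or less. Knockout replicate 1 was the lowest library for 10 of the 22 (45.5%, against 25.8% of all tested genes). Tissue handling also acts on Dusp1. Of 16 tested dissociation stress genes, 10 were lower in knockout, against 52.1% of all tested genes. The heat-shock genes Hspa1a and Hspa1b passed the threshold, against 0.0381% of all tested genes. Hspa1a was at 117 and 325 CPM in Altre-WT and 17.8 and 29.8 CPM in Altre-KO. Hspa1b was at 309 and 702 CPM against 81.1 and 87.4 CPM. Fos had a log2 fold change of -0.76 (limma adjusted p = 0.683). Fos passed in 2 of the 14 alternative fits, with the replicate number as a block (limma adjusted p = 0.0346) and without knockout replicate 2 (limma adjusted p = 0.0415), and its adjusted p reached 0.999 in another. The part of handling in the levels of Dusp1 or Tsc22d3 was not tested.

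**Figure D4:**
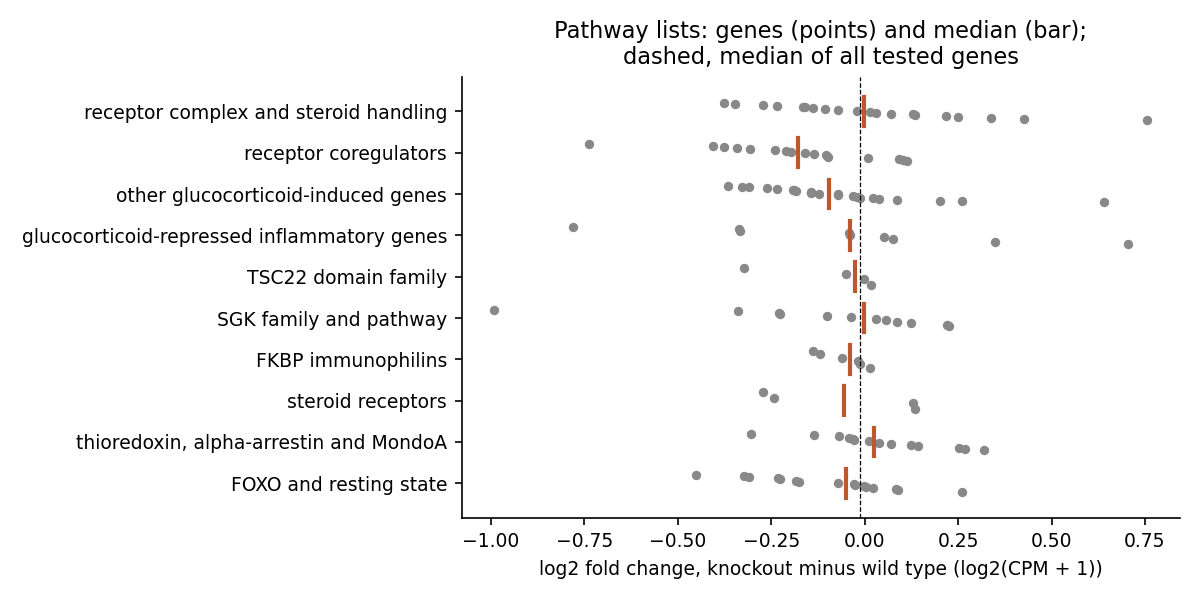
Log2 fold change (x axis, knockout minus wild type) of each tested gene of 10 pathway lists (points) with the list's median (bar) and the median of all tested genes (dashed line). Medians lay between -0.18 for coregulators and 0.03 for the thioredoxin, alpha-arrestin and MondoA list. The dissociation stress list is not shown.

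Of 19 inflammatory genes that glucocorticoids repress, 9 passed the filter, as did 10486 of all 24452 listed genes. In knockout 4 were higher and 5 lower, none past the threshold, and their median log2 fold change was -0.04. Il13 and Il17a were at 0 in all libraries, and Il2, Il4, Il5, Il6 and Csf2 were at 1.53 CPM or less. The NF-kB subunit gene Rela was at 114 and 90.8 CPM in Altre-WT and 73.2 and 88.1 CPM in Altre-KO (log2 fold change -0.34), and Nfkb1 had -0.04. Ifng (-0.78) and Ccl5 (0.70) had wide intervals, from -1.89 to 0.34 and from -0.72 to 2.13.

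Of 13 genes of the SGK family and pathway, Sgk1 included, 12 were tested, 6 higher and 6 lower and none past the threshold, and their median log2 fold change was -0.0020. The upstream kinase gene Pdpk1 had a log2 fold change of -0.04, the mTORC2 subunit gene Rictor 0.12 and the ubiquitin ligase gene Nedd4l, a target of Sgk1, 0.03. Ndrg1, another substrate gene, was at 14.8 and 14.7 CPM in Altre-WT and 2.76 and 15.7 CPM in Altre-KO. Wnk1, of a kinase of salt transport, was at 571 and 558 CPM against 332 and 599.5 CPM. Both were low in knockout replicate 1 alone. Without knockout replicate 2, which leaves that library as the lone knockout, Wnk1 had a limma adjusted p of 0.0415, with a log2 fold change of -0.76. Over all alternatives its adjusted p ran from 0.0415 to 1.

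Around Txnip, 14 of 17 thioredoxin, alpha-arrestin and MondoA genes, Txnip included, were tested, 8 higher and 6 lower, and their median log2 fold change was 0.03. Arrdc4, the arrestin gene that shares with Txnip control by MondoA, was at 45.9 and 49.6 CPM in Altre-WT and 48.7 and 44.9 CPM in Altre-KO. Mlxip, the MondoA gene, was at 86.4 and 89.5 CPM against 68.0 and 107 CPM, and its relative Mlxipl was at 0 in all libraries. Arrdc3 was separated between genotypes, at 71.1 and 79.9 CPM against 62.5 and 59.3 CPM (log2 fold change -0.30), and the thioredoxin reductase gene Txnrd1 the other way, at 69.5 and 64.3 CPM against 75.0 and 93.1 CPM (0.32). Arrdc1 had 0.25 and the thioredoxin gene Txn1 0.01. The glucose transporter genes Slc2a1 and Slc2a3 had 0.04 and -0.03.

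FOXO factors also drive Txnip and Tsc22d3 in resting T cells. Of 16 FOXO and resting-state genes, all tested, 11 were lower and 5 higher in knockout, and their median log2 fold change was -0.05 and none past the threshold. Foxo1 was at 153 and 140 CPM in Altre-WT and 135 and 180 CPM in Altre-KO, and Foxo3 had -0.23. Lef1, a transcription factor of naive T cells, was at 95.7 and 107 CPM against 75.6 and 72.0 CPM (log2 fold change -0.45, unadjusted p = 0.0278, limma adjusted p = 0.999), and its partner Tcf7 at 208 and 261 CPM against 146 and 238 CPM. The trafficking genes S1pr1 and Ccr7 had log2 fold changes of 0.08 and 0.0033.

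**Figure D5:**
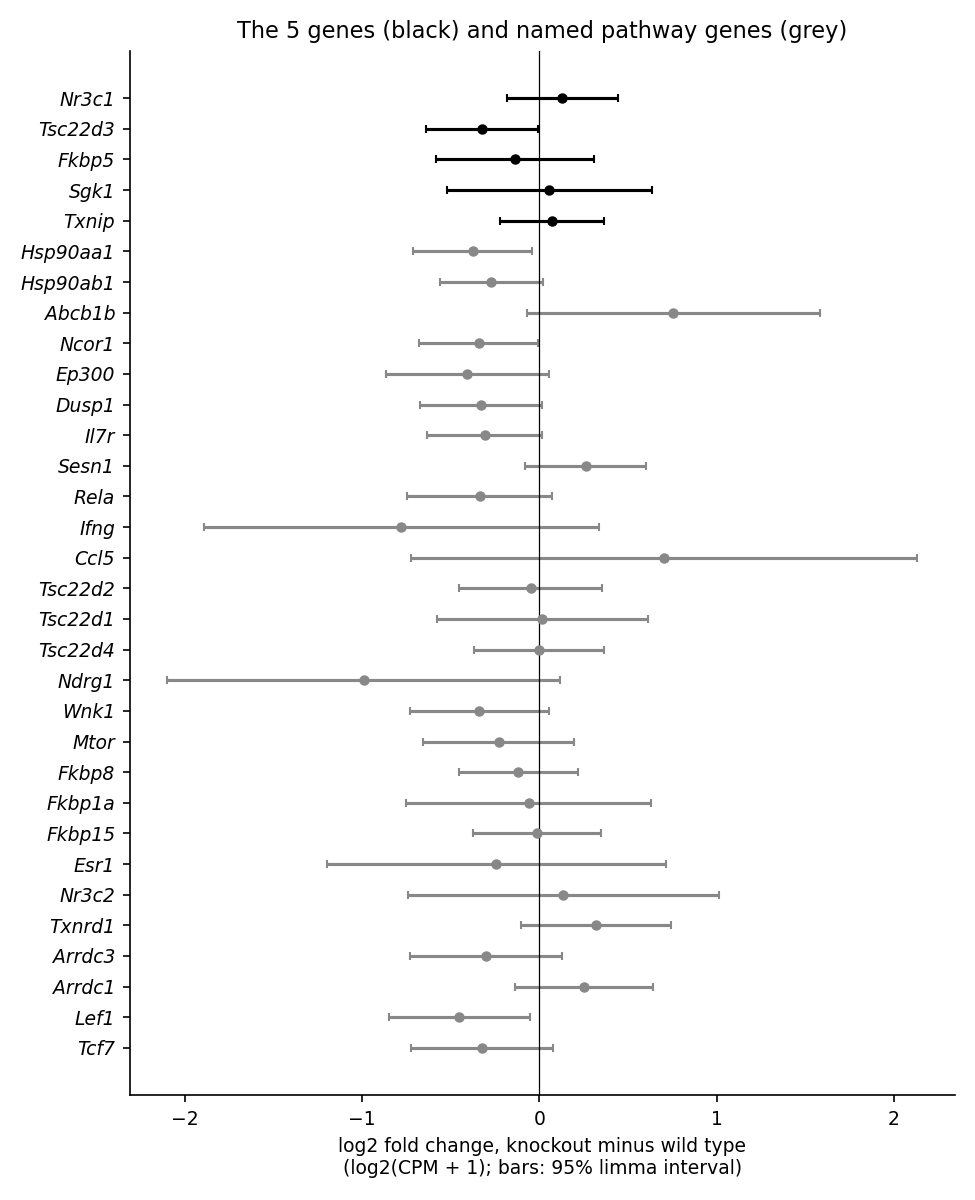
Log2 fold change (x axis, knockout minus wild type) with 95% limma intervals for the 5 genes (black) and for pathway genes named by rule (grey). The dissociation stress list, whose genes Hspa1a and Hspa1b passed the threshold, is not shown. Intervals of Nr3c1, Fkbp5, Sgk1 and Txnip span 0, and that of Tsc22d3 ends at -0.0053. No gene shown passed after adjustment over all tested genes.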

How the data were processed

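RNA sequencing of 4 liver Treg libraries was analysed. The submitters' processing notes name cutadapt, STAR, DESeq2 and build mm10. Roles, versions, counter and annotation are not stated in these sources. The authors deposited RPM (unit read from the values, with 0.0001 added) and CPM, per the file headers. The deposited table also gives each genotype's mean signal in CPM, its log2 fold change, and p-values from a test it does not name. Reads were estimated from the smallest common RPM step. Between 92.9% and 93.8% of values above 0 were whole within 0.02 of a read, so no count test was used. Library sizes on listed genes, 1828773 to 3266132 estimated reads, limit the precision.

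Genes with 10 estimated reads at the median depth (4.22 CPM) in at least 2 libraries were fitted with limma 3.58.1 (R 4.3.3, trend, robust off) on log2(CPM + 1), group only, 2-sided, with Benjamini-Hochberg adjustment over 10486 genes. The scripts were tested on simulated data. The 2 libraries of a genotype were not copies (chi-square per degree of freedom 3.5 and 10.3). Poisson intervals cover counting error only. Fold changes understate those of low genes. The 5 genes and all lists were chosen with earlier results of these data known. In each list the 3 tested genes with the smallest p were named, then family members, classic targets and interacting genes as values, some chosen after their values were seen. Some genes of the lists are counted there but not reported here by name. Alternatives covered scaling, filter, pseudocount, threshold, voom, a replicate block and leaving out each library.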

Additional observations from a re-analysis of the deposited data

How the results depend on the processing

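None of the 5 genes passed the threshold under any of 14 alternatives. Nr3c1, Tsc22d3, Sgk1 and Txnip kept their direction in all of them, and Fkbp5 in 13. Outside the fits without a library, log2 fold changes lay between 0.13 and 0.16 for Nr3c1, -0.33 and -0.29 for Tsc22d3, -0.18 and -0.11 for Fkbp5, 0.049 and 0.085 for Sgk1, and 0.071 and 0.10 for Txnip. Leaving out each library, Fkbp5 ran from -0.39 to 0.11. Over all tested genes, 2 passed with a pseudocount of 0.1, both lower. Fits without a library gave 6 to 16 genes, 0 to 11 of them higher and 4 to 14 lower. With the replicate number as a block, 6 genes passed, 1 of them higher, and no call on the 5 genes changed. The numbers do not pair the libraries by label, and the differences between replicates of the 2 genotypes had a correlation across genes of -0.01. Small values changed sign with the setting. Tsc22d1 was at -0.0057 with limma-voom. Tsc22d4 and Fkbp15 were at 0.027 and 0.017 with median-of-ratios size factors and at 0.014 and 0.0042 with upper-quartile scaling. Without a library, the ranges that crossed 0 were -0.14 to 0.17 (Tsc22d1), -0.11 to 0.10 (Tsc22d4), -0.14 to 0.046 (Tsc22d2), -0.27 to 0.029 (Fkbp8), -0.11 to 0.087 (Fkbp15), -0.38 to 0.26 (Fkbp1a), -0.44 to 0.71 (Nr3c2), -0.37 to 1.77 (Ccl5), -1.56 to 0.0029 (Ifng), -0.90 to 0.085 (Ep300), -2.07 to 0.083 (Ndrg1), -0.76 to 0.087 (Wnk1), -0.50 to 0.039 (Mtor) and -0.68 to 0.028 (Tcf7). With 1 library left in a genotype, it is assumed to vary like the other group. The cause of these changes was not tested. Depth limits Sgk1 most.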
